A study of Mus musculus with 4 samples.

Results

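The histone lysine methylation machinery was examined in 2-cell mouse embryos as a set of 50 genes: the methyltransferases and demethylases of histone lysines and the core subunits that the KMT2 and SETD1 H3K4 methyltransferases share. The genes were taken by name from a list of these enzymes, drawn up with earlier results of these data known, and grouped by the residue they act on; the list itself uses no measured value. All 50 were found among the 53715 rows of the deposited gene table, and all 50 were among the 25565 genes with enough counts to be tested. The study sequenced polyA RNA, as cDNA amplified beforehand, from whole C57BL/DBA2 embryos. Zygotes collected from the oviduct were injected with an siRNA against SPENH0335 (knockdown, 2 libraries) or with siNC, a control siRNA (control, 2 libraries), both at 20 μM, and grown in KSOM, an embryo culture medium, to the 2-cell stage. No other genotype or agent separates the groups in the labels. By the title of the series, SPENH0335 would be an enhancer-derived transcript. The sources used here give neither the number of embryos per library nor the origin of the replicates, so p-values reflect the spread of these 4 libraries alone, and that spread may be technical.

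Histone lysine methylation is written by SET-domain enzymes, and by the unrelated enzyme DOT1L, and is removed by the flavin-dependent enzymes KDM1A and KDM1B and by the larger JmjC family. H3K4 methylation marks promoters and enhancers, H3K36 and H3K79 methylation mark transcribed gene bodies, and H3K9, H3K27 and H4K20 methylation are tied to silencing and compaction. In the early mouse embryo these marks are rebuilt as the embryo turns from maternal RNA to its own transcription. Broad H3K4 methylation inherited from the oocyte is removed around the 2-cell stage, and maternal supplies of several of these enzymes are needed for development.

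The libraries held 94257563 and 99011109 counts in knockdown and 87900405 and 78865491 in control. The 12 markers listed for oocyte and 2-cell embryos were all detected, with sums of 6497 to 6620 CPM (counts scaled to library depth, with factors from the trimmed mean of M-values) in knockdown and 6787 to 6877 CPM in control. Behind these sums, 4 of the 12 were higher in knockdown and 5 lower without overlap of the groups, against 15.6% and 17.1% of all genes. The higher were Zfp352, Zscan4c, Zscan4d and Zscan4f, and the lower were Bmp15, Gdf9, Oosp1, Nlrp5 and Ooep. The groups of Dppa3, Padi6 and Zp3 overlapped. In edgeR 4 of the 12 had an unadjusted p under 0.05, against 3.85% of all genes, and none passed adjustment (each adjusted p 0.9999). Of these 4, 3 belong to the Zscan4 family of 2-cell transcripts, whose near-identical copies can share reads. Zscan4f had 238 and 211 CPM in knockdown and 147 and 158 CPM in control (log2 fold change 0.56, unadjusted p 0.00384). Gdf9, an oocyte growth factor, had 273 and 299 CPM in knockdown and 387 and 369 CPM in control (-0.40, unadjusted p 0.00891). The part of such differences in the values below was not tested. The 10 cumulus and granulosa markers summed to 46.8 to 65.0 CPM in knockdown and 53.2 to 57.2 CPM in control, and the 10 blood, oviduct and stroma markers to 80.1 to 87.6 CPM in knockdown and 90.8 to 104 CPM in control. The 7 sperm markers stood at 3.85 to 4.16 CPM in knockdown and 5.61 to 6.64 CPM in control. Cyp19a1 made up most of the cumulus and granulosa sum, at 36.8 and 55.7 CPM in knockdown and 47.4 and 38.6 CPM in control. Pecam1, at 49.3 to 61.1 CPM, and Hba-a1, at 10.4 to 27.1 CPM, made up most of the blood, oviduct and stroma sum. Without overlap, 1 cumulus and granulosa marker was higher in knockdown and 2 lower. For blood, oviduct and stroma these were 1 and 4, and for sperm 1 and 4. Has2 (edgeR unadjusted p 0.0173) and Krt7 (0.0478) were among the lower, each at adjusted p 0.9999. The granulosa and cumulus markers Amh and Cd44 had no counts in 3 libraries each, and Smcp and Hbb-bs had none in any. Whether RNA of other cells had a part in the values below was not tested. The level of SPENH0335 itself was not analysed here, so the extent of the knockdown is not given. The knockdown replicates were further apart than the control replicates, as given below, so results that rest on 1 of them are given with and without it.

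No gene of the set passed the test for a difference between knockdown and control embryos (edgeR quasi-likelihood test, 0 of 50 at an adjusted p under 0.05, every adjusted p 0.9999, against 0.0% of all genes tested). At an unadjusted p under 0.05 there were also 0 of 50, against 3.85% of all genes, and the smallest unadjusted p was 0.0554. DESeq2 called 0 members at an adjusted p under 0.05, against 0.169% of all genes, and had 1 at an unadjusted p under 0.05, Smyd2, against 4.01% of all genes. With limma-voom there were 2, Kdm6a and Smyd5, against 3.13%. The count was 0 with RLE factors, against 3.83% of all genes, with upper-quartile factors, against 3.81%, without a filter, against 2.67%, and over genes averaging 10 CPM or more, against 3.29% (2.72% of those genes in the fit to all genes). It was also 0 with the replicate block, against 1.87%, with replicate numbers crossed, against 2.92%, without control replicate 1, against 1.89%, and without control replicate 2, against 2.0%. The median log2 fold change, knockdown over control, was 0.05 over the 50 genes and -0.0025 over all genes tested. Of the 50, 29 lay above 0 and 21 below, against 49.7% of all genes above 0. Among the 40 members with a mean of at least 10 CPM, 25 lay above 0, against 55.4% of all genes of that level. In bulk embryos, fewer cells with a transcript and less of it in each cell cannot be told apart.

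The data bounded the change of most of these genes. For 36 of the 50 the 95% interval of the fold change lay within 2-fold in either direction, and all 36 were among the 40 members with a mean of at least 10 CPM. That is 90.0% of those 40, against 87.8% of all genes of that level. The exceptions of at least 10 CPM were Rbbp5, Kmt2e, Kdm1a and Kdm4c, whose intervals reached past 2-fold. The 10 members under 10 CPM, Kmt2a, Setd7, Suv39h1, Ehmt2, Kmt5c, Smyd2, Smyd5, Kdm4b, Kdm4d and Phf2, all had intervals that reached past 2-fold. The groups did not overlap for 11 members that were higher and 8 that were lower in knockdown, against 15.6% and 17.1% of all genes in those directions. That is 19 of 50 in all, against 32.7%, and 14 of the 40 members of at least 10 CPM, against 32.4%.

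**Figure D1:**
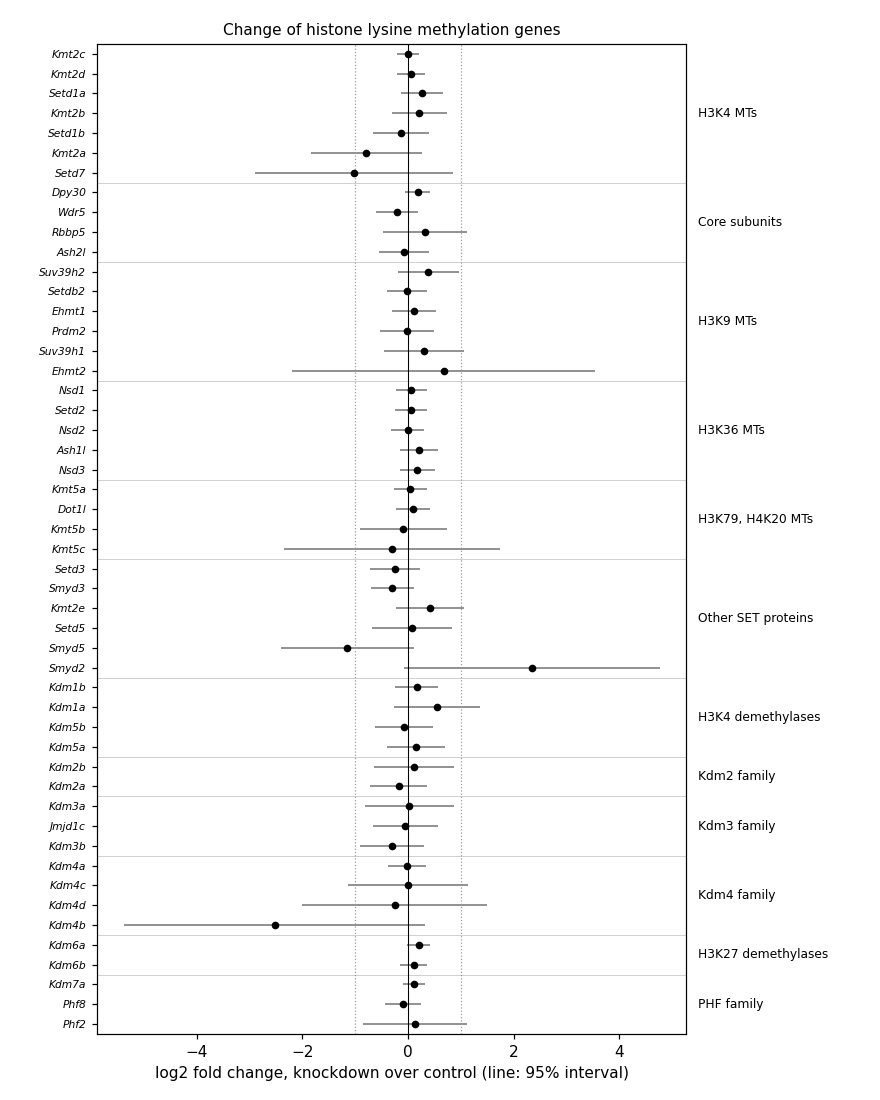
Log2 fold change of each of the 50 genes, knockdown over control (x axis), with its 95% interval from the edgeR fit as a line; genes run down the page by target class (MT, methyltransferase), and dotted lines mark a 2-fold change. All 50 intervals cross 0, and 36 lie between the dotted lines.

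The set spanned a wide range of transcript levels. Levels of different genes were compared per length, as CPM per kilobase of merged exons (CPM/kb), averaged over the 4 libraries. The median was 4.54 CPM/kb, against 1.06 over all genes tested, 15 members were over 10 CPM/kb and 10 were under 1. The highest was Dpy30, a small subunit shared by the KMT2 and SETD1 complexes, at 362 CPM/kb, above 99.6% of the genes tested. It was followed by Kdm7a at 66.0, Kdm6a at 51.7, Kmt2c at 47.2, Suv39h2 at 43.6, Kdm6b at 38.5, Nsd1 at 37.4 and Kdm1b at 36.7 CPM/kb. The lowest was Setd7 at 0.0722 CPM/kb, after Kdm4b at 0.0919. Of the 49 neighbouring pairs in the order, 3 were separated in the sense that the ranges of the 4 libraries did not overlap: Dpy30 stood apart from Kdm7a, Kdm7a from Kdm6a, and Kdm1b from Wdr5. With the mean length of coding transcripts in place of merged exons, 7 of the 10 highest members stayed among the 10 highest. The same held for 9 of the 10 lowest. By that length Kdm7a fell below Kdm6a, Kmt2c and Nsd1, and narrowly below Kdm1b, so its place above these genes depends on the length used.

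**Figure D2:**
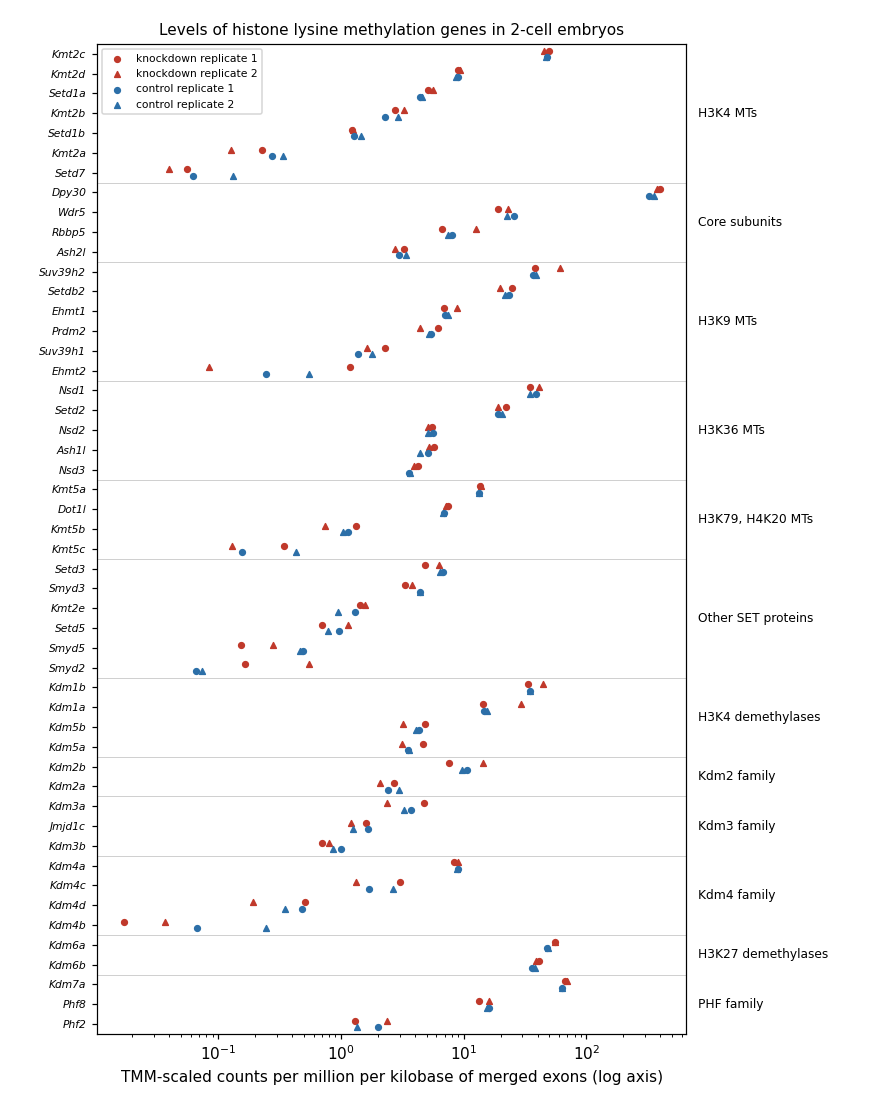
Level of each gene in each library, as CPM per kilobase of merged exons on a log axis, with genes in order of their level within each target class (MT, methyltransferase). Dpy30 stands at 326 to 395 and Setd7, the lowest on average, at 0.0394 to 0.131, and the points of Kdm4b spread from 0.0169 to 0.247.

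Promoters of 35 of the 50 genes were in the RefSeq promoter table (GRCm38.p6), with 51 windows of 300 bases, each from 250 before to 50 after an annotated start. The windows were rich in CpG, with a median of 28 CpG, against 21 in 7622 windows of protein-coding genes of at least 10 CPM and 7 in all 32851 windows. The letters GGGCGG, searched on both strands, were in 36 of the 51 windows (70.6%), against 61.8% for the protein-coding genes of at least 10 CPM and 35.7% of all windows. CCAAT was in 33.3%, against 39.7% and 37.4% in the same sets, and TATAAA in 0 of 51, against 7.5% and 13.6%. Of the members with a single window, those highest and lowest per kilobase of merged exons are printed here. This sets the ends of that range side by side. Both genes lie on the reverse strand, capitals mark GGGCGG or CCAAT on either strand, with overlapping matches run together, and a match is not a measured site.
Kdm7a, chr6:39206724-39207023: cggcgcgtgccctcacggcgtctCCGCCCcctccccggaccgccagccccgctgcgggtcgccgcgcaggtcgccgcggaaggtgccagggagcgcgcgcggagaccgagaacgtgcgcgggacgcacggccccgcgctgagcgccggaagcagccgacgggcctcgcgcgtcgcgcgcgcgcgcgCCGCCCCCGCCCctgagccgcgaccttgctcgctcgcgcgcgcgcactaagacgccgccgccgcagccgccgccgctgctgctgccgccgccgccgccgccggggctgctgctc
Setd7, chr3:51560774-51561073: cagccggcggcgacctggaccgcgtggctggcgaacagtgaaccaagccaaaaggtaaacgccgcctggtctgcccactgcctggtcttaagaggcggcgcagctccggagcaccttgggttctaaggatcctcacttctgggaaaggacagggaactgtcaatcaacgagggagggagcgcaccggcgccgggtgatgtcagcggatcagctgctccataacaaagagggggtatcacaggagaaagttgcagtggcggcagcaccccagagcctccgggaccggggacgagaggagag
The Kdm7a window held 65 CpG and 3 GGGCGG matches and the Setd7 window 21 CpG and no match to GGGCGG or CCAAT. These 2 windows do not stand for the set. The window of Kdm6a, rank 3 by level, also held 21 CpG, and that of Smyd2, rank 48, held 43 CpG and GGGCGG. Whether CpG or GGGCGG content follows the level was not tested.

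Among the 7 H3K4 methyltransferases, Kmt2c and Kmt2d, which write monomethylation at enhancers, were the highest per length, at 47.2 and 9.01 CPM/kb. Setd1a followed at 4.94 and Kmt2b at 2.81 CPM/kb. Kmt2c (chromosome 5, 25271798 to 25498783, GRCm38) had 1001 and 913 CPM in knockdown embryos, against 967 and 946 CPM in controls. Its log2 fold change was 0.00 with a 95% interval from -0.22 to 0.22, so a change of more than about 1.16-fold lay outside the interval. Kmt2d had 178 and 188 CPM in knockdown and 180.4 and 173 CPM in control. The groups of both genes overlapped. Per length, Kmt2c was 5.53 and 4.78 times as high as Kmt2d in the knockdown libraries and 5.27 and 5.38 times in the controls.

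The trimethylating enzymes of promoters were lower. Kmt2b, the enzyme behind much of the H3K4 methylation of growing oocytes, had 26.6 and 31.3 CPM in knockdown and 22.1 and 27.7 CPM in control (log2 fold change 0.22, SE 0.21), with overlapping groups. Its paralog Kmt2a had 3.77 and 2.13 CPM in knockdown, both below the 4.53 and 5.65 CPM of the controls (log2 fold change -0.79, SE 0.42, unadjusted p 0.116). Setd1a, a catalytic subunit of the COMPASS complex, had 35.1 and 38.3 CPM in knockdown and 30.2 and 30.8 CPM in control (0.27, SE 0.16, unadjusted p 0.153), without overlap. A protein-coding gene model on the same strand, Gm49388, covers 51.8% of the Setd1a exons and had 0 counts, so the split of reads between them is uncertain. The paralog Setd1b had 14.7 and 15.2 CPM in knockdown and 15.5 and 17.4 CPM in control, lower without overlap. Setd7, a monomethyltransferase with many substrates outside histones, had 0.601 and 0.426 CPM in knockdown and 0.677 and 1.42 CPM in control, from 40 to 114 counts per library. None of these differences passed the test, and 4 of the 7 genes lay above 0 and 3 below, with a median log2 fold change of 0.0002.

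The core subunits that the KMT2 and SETD1 enzymes bind differed far more from each other than between the groups. Dpy30 (chromosome 17, 74299474 to 74323944) had 452 and 430.1 CPM in knockdown, both above the 374 and 405 CPM of the controls, with a log2 fold change of 0.18 (95% interval -0.06 to 0.42, unadjusted p 0.116). Wdr5, the histone-binding scaffold, had 68.1 and 82.9 CPM in knockdown and 93.1 and 81.7 CPM in control. Rbbp5, which activates the SET domain, had 26.3 and 49.4 CPM in knockdown and 31.4 and 29.2 CPM in control. Ash2l, the partner of Rbbp5 and Dpy30, had 29.4 and 24.8 CPM in knockdown and 26.6 and 30.3 CPM in control. Only the Dpy30 groups did not overlap. Per length the order was Dpy30 at 362, Wdr5 at 22.6, Rbbp5 at 8.67 and Ash2l at 3.09 CPM/kb, with no overlap between any of these neighbours.

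Of the H3K9 methyltransferases, Suv39h2 held most of the signal of its pair. Suv39h2 (chromosome 2, 3455815 to 3475031), which trimethylates H3K9 in heterochromatin and acts on the paternal genome after fertilization, had 168 and 268 CPM in knockdown and 161 and 173 CPM in control (log2 fold change 0.38, SE 0.23, unadjusted p 0.147). Knockdown replicate 2 alone stood above the others. Without knockdown replicate 1 the log2 fold change of Suv39h2 was 0.69, and without knockdown replicate 2 it was 0.01. Its X-linked paralog Suv39h1 had 12 and 8.53 CPM in knockdown and 7.31 and 9.39 CPM in control. Per length Suv39h2 was 16.7 and 37.6 times as high as Suv39h1 in knockdown and 26.3 and 22.0 times in control. The antisense gene Gm14820 overlaps 14.6% of the exons of Suv39h1 and stood at 119 and 177 CPM in knockdown and 141 and 129 CPM in control. Since the strand setting of the counting is unknown, reads of this pair cannot be told apart.

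The G9a and GLP pair, which dimethylates H3K9 in euchromatin as a heterodimer, was also uneven. Ehmt1 (GLP) had 56.5 and 71.5 CPM in knockdown and 57.2 and 61.0 CPM in control. Ehmt2 (G9a) had 6.52 and 0.458 CPM in knockdown, from 629 and 43 counts, and 1.34 and 3.04 CPM in control, from 119 and 244 counts. The knockdown libraries of Ehmt2 lay on both sides of the controls, and its interval ran from -2.19 to 3.54 on the log2 scale. Per length Ehmt1 exceeded Ehmt2 in all 4 libraries, by 5.87 and 106 times in knockdown and 28.8 and 13.6 times in control. Setdb2, another SET-domain methyltransferase of H3K9, had 99.8 and 80.4 CPM in knockdown and 93.9 and 88.2 CPM in control, and Prdm2, also called RIZ, 45.6 and 32.8 against 40.5 and 39.0 CPM. Of the 6 genes 4 lay above 0 and 2 below, with a median log2 fold change of 0.21 and none past the test.

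The log2 fold changes of the 5 H3K36 methyltransferases lay between -0.01 and 0.21. Nsd1, which writes dimethylation over intergenic chromatin, was the highest per length, at 37.4 CPM/kb, and had 612 and 722 CPM in knockdown and 673 and 606 CPM in control. Setd2, the only known enzyme for most H3K36 trimethylation and needed in oocytes to set their DNA methylation, had 239 and 205 CPM in knockdown and 206 and 222 CPM in control. Nsd2 had 92.8 and 86.6 CPM in knockdown and 93.9 and 86.7 CPM in control. For these 3 genes the groups overlapped. For Ash1l, a trithorax protein, both knockdown values, 85.5 and 77.1 CPM, lay above both control values, 75.8 and 64.8 CPM (0.21, SE 0.15, unadjusted p 0.208). Nsd3 likewise had 70.0 and 64.6 CPM in knockdown and 58.9 and 60.3 CPM in control (0.18, SE 0.13, unadjusted p 0.236).

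Outside the lysines of the H3 tail, Kmt5a, which monomethylates H4K20 and is needed for mitotic chromatin and genome stability, had 72.5 and 73.7 CPM in knockdown and 70.9 and 71.1 CPM in control, a log2 fold change of 0.04 (SE 0.12). Dot1l, the H3K79 methyltransferase, had 64.4 and 62.4 CPM in knockdown and 60.0 and 58.7 CPM in control (0.10, SE 0.13). In both genes the knockdown values lay above the controls without overlap, as for 15.6% of all genes, and neither passed the test. The enzymes of H4K20 di- and trimethylation were lower. Kmt5b had 19.5 and 10.8 CPM in knockdown and 16.8 and 15.4 CPM in control, and Kmt5c, the trimethylating enzyme of pericentromeres, 1.37 and 0.522 against 0.62 and 1.72 CPM.

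The SET-domain proteins with other or disputed substrates held the smallest unadjusted p of the set. Smyd2 (chromosome 1, 189880492 to 189922363), which methylates p53 among other proteins, had 0.445 and 1.49 CPM in knockdown and 0.18 and 0.199 CPM in control, from 43 and 140 counts against 16 and 16. The log2 fold change was 2.34 with a 95% interval from -0.08 to 4.76 (unadjusted p 0.0554), and the groups did not overlap. It was 2.97 without knockdown replicate 1 and 1.23 without knockdown replicate 2. An antisense gene, Gm37422, lies over 30.0% of its exons and stood at 0.0319 CPM or less. In DESeq2 the log2 fold change of Smyd2 was 2.37 (unadjusted p 0.0434, adjusted p 0.945), and in limma-voom 2.07 (unadjusted p 0.163, adjusted p 0.978). The unadjusted p of Smyd2 in edgeR was 0.0516 with upper-quartile factors and 0.0546 with RLE factors. It was 0.0651 without a filter and 0.116 with the replicate block. Smyd5 had 0.891 and 1.62 CPM in knockdown, both below the 2.85 and 2.71 CPM of the controls (-1.15, SE 0.50, unadjusted p 0.0668). Smyd3 had 30.6 and 35.1 CPM in knockdown and 40.4 CPM in both controls (-0.30, SE 0.16, unadjusted p 0.124). These 3 SMYD genes thus lay on both sides of 0.

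Setd3, since found to methylate a histidine of actin, had 29.5 and 38.2 CPM in knockdown and 41.2 and 39.0 CPM in control, without overlap. Kmt2e, a KMT2 relative with no established activity on histones, had 14.9 and 16.3 CPM in knockdown and 13.6 and 9.8 CPM in control (0.41, SE 0.26, unadjusted p 0.163). It shares 9.3% of its exon length, on the opposite strand, with Srpk2, which stood at 531 and 624 CPM in knockdown and 515 and 530 CPM in control, so its value is uncertain. Setd5 had 12.9 and 20.8 CPM in knockdown and 17.7 and 14.3 CPM in control.

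Among the H3K4 demethylases the knockdown replicates of Kdm1a stood far apart and its controls close together. Kdm1a (LSD1; chromosome 4, 136550540 to 136602723), whose maternal supply the mouse embryo needs to pass the 2-cell stage, had 74.6 and 151 CPM in knockdown, against 75.3 and 79.5 CPM in control. Replicate 2 was thus 2.03 times replicate 1 in knockdown and 1.06 times in control. The log2 fold change was 0.55 (SE 0.33, unadjusted p 0.151). Without knockdown replicate 1 it was 0.97, and without knockdown replicate 2 it was -0.05. The difference therefore rests on 1 library. Kdm1b (LSD2), which demethylates H3K4 in oocytes and is needed for maternal imprints, had 182 and 244 CPM in knockdown and 189.9 and 190.5 CPM in control. Per length Kdm1b was above Kdm1a in every library, by 2.30 and 1.52 times in knockdown and 2.38 and 2.26 times in control. Dek lies on the opposite strand over 9.2% of the Kdm1b exons and stood at 391 and 332 CPM in knockdown and 323 and 354 CPM in control, above Kdm1b itself, so the value of Kdm1b and this ratio are uncertain.

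Kdm5b, which removes H3K4 trimethylation and has a part in the loss of broad domains in the early embryo, had 80.5 and 53.3 CPM in knockdown and 72.2 and 68.1 CPM in control. Kdm5a, its paralog, had 66.3 and 44.5 CPM in knockdown and 49.6 and 50.3 CPM in control. In both genes the knockdown libraries lay on both sides of the controls. Per length the pair was the closest of the 11 paralog pairs, with ratios of 1.04 and 1.03 in knockdown and 1.25 and 1.16 in control, and the ranges of the genes overlapped.

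The other JmjC demethylases of H3K9 and H3K36 gave no shared direction. Kdm2b, which also recruits a Polycomb complex to CpG islands, had 82.2 and 157 CPM in knockdown and 116 and 105 CPM in control, and Kdm2a had 38.9 and 29.8 against 34.8 and 43.1 CPM. Rnf34 lies on the opposite strand over 5.8% of the Kdm2b exons and stood at 488 and 655 CPM in knockdown and 565 and 582 CPM in control, so the value of Kdm2b is likewise uncertain. Kdm3a, an H3K9 demethylase, had 38.7 and 19.6 CPM in knockdown and 30.5 and 26.8 CPM in control. Jmjd1c, its relative with disputed activity, had 28.5 and 21.7 CPM in knockdown and 29.8 and 22.2 CPM in control, so both pairs of replicates were apart. Kdm3b had 9.96 and 11.4 CPM in knockdown, both below the 14.2 and 12.1 CPM of the controls (-0.30, SE 0.24, unadjusted p 0.261). The opposite-strand gene Gm26538 lies over 24.6% of the Kdm3b exons and stood at 0.128 CPM or less.

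In the KDM4 family, which removes H3K9 trimethylation and, in some members but not KDM4D, H3K36 trimethylation, Kdm4a was the highest and the steadiest. Kdm4a, whose maternal supply protects early embryonic gene activation from H3K9 methylation, had 48.4 and 52.1 CPM in knockdown and 51.5 and 50.5 CPM in control (-0.02, SE 0.14). Kdm4c had 17.7 and 7.75 CPM in knockdown and 9.92 and 15.4 CPM in control, with wide steps in both groups. Kdm4d had 1.45 and 0.554 CPM in knockdown and 1.39 and 0.996 CPM in control. Kdm4b (chromosome 17, 56326062 to 56402870) had 0.0829 and 0.181 CPM in knockdown, from 8 and 17 counts, and 0.327 and 1.21 CPM in control, from 29 and 97 counts. Its groups did not overlap, and its log2 fold change of -2.53 had an interval from -5.38 to 0.33 (unadjusted p 0.0729).

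The H3K27 demethylases and KDM7A were abundant and close between replicates. Kdm6a (UTX; chromosome X, 18162575 to 18279936), which also works in the KMT2C and KMT2D complexes, had 465 and 462 CPM in knockdown and 404 CPM in both controls. The log2 fold change was 0.20 with a 95% interval from -0.02 to 0.41 (unadjusted p 0.0658, adjusted p 0.9999), a fold of 1.15. It was 0.19 without knockdown replicate 1 and 0.21 without knockdown replicate 2. The unadjusted p of Kdm6a was 0.0409 with limma-voom (adjusted p 0.978) and 0.136 with DESeq2. In edgeR it was 0.0586 with upper-quartile factors and 0.0671 with RLE factors. It was 0.0894 over genes averaging 10 CPM or more, 0.0954 without a filter and 0.143 with the replicate block. Kdm6b (JMJD3) had 287 and 269 CPM in knockdown and 249.9 and 266 CPM in control (0.11, SE 0.10). Kdm7a (chromosome 6, 39136623 to 39206789), a demethylase of H3K9 and H3K27 dimethylation, had 672 and 705 CPM in knockdown and 639 and 638 CPM in control (0.11, SE 0.08, unadjusted p 0.244). In all 3 both knockdown values lay above both control values, as they did for 15.6% of all genes, and none passed the test. Of its relatives, the X-linked Phf8 had 124 and 151 CPM in knockdown and 149.8 and 144 CPM in control, and Phf2 had 7.1 and 13.0 against 10.9 and 7.42 CPM.

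The 11 pairs of close paralogs kept the same order in all 4 libraries, whatever the injection. In 10 of the 11 the ranges of the higher and the lower gene did not overlap, Kdm5b and Kdm5a being the exception, and all 11 kept their order with coding transcript length in place of merged exons. Beyond the pairs given above, Kmt2b exceeded Kmt2a by 12.2 and 25.5 times in knockdown and 8.46 and 8.53 times in control. Setd1a exceeded Setd1b by 4.23 and 4.47 times in knockdown and 3.46 and 3.14 times in control. Kdm6a exceeded Kdm6b by 1.34 and 1.42 times in knockdown and 1.34 and 1.26 times in control, and 3.19 times on average with coding transcript length. The Kmt2b to Kmt2a, Setd1a to Setd1b and Kdm6a to Kdm6b ratios were higher in both knockdown libraries than in both controls, the last by a margin that rounding hides, and the Kdm5b to Kdm5a ratio was lower. With 2 libraries a group, an exact permutation test cannot go below p = 0.333, so these ratios are given without a test. Among single genes, the groups did not overlap for 32.7% of all genes tested. The Setd1a value is uncertain for the exon overlap given above, and Kmt2a had 200 to 454 counts per library.

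**Figure D3:**
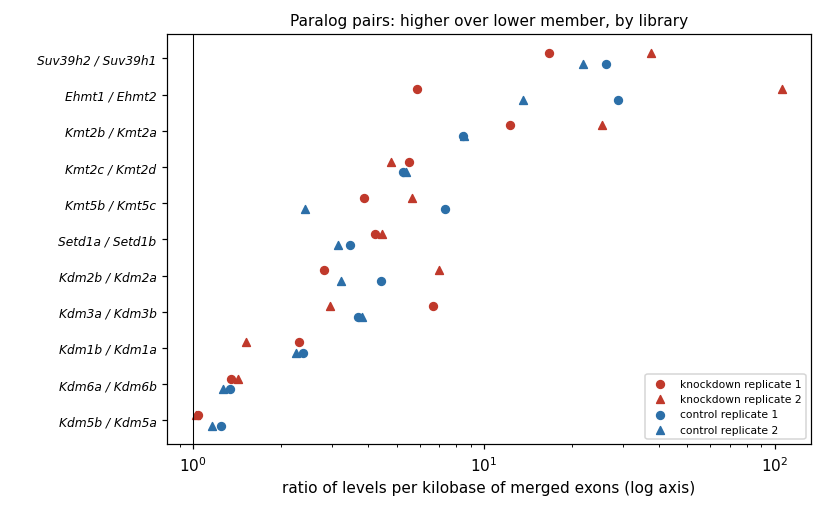
Ratio of the higher to the lower gene of each paralog pair, by level per kilobase of merged exons (log axis), 1 point per library. All points lie above 1, and the Ehmt1 to Ehmt2 ratio is the widest, from 5.87 to 106.

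The knockdown replicates were further apart than the control replicates. Over the 40 members of at least 10 CPM, the median absolute log2 difference between replicates was 0.24 in knockdown and 0.10 in control, against 0.26 in knockdown and 0.13 in control over all genes of that level. The knockdown replicates of 9 of the 40 were more than 1.5-fold apart, against 16.8% of all genes of that level, and the control replicates of 1 of the 40, against 3.25%. Knockdown replicate 2 was the higher for Kdm1a, Kdm2b, Rbbp5, Setd5 and Suv39h2 and the lower for Kdm4c, Kdm3a, Kmt5b and Kdm5b. Kdm4c was also the one gene apart in control, in the other direction. With 1 knockdown library left out, the spread comes from the 2 controls and the trend over all genes, and the remaining knockdown library is assumed to vary like the controls, so these counts do not stand for the condition. Without knockdown replicate 1, 12 of the 50 genes had an unadjusted p under 0.05, against 13.1% of all genes, and without knockdown replicate 2 there were 11, against 8.02%. Among genes of at least 10 CPM these were 9 of 40 against 23.5% and 9 of 40 against 12.4%. No adjusted p passed in either case, the smallest being 0.136.

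**Figure D4:**
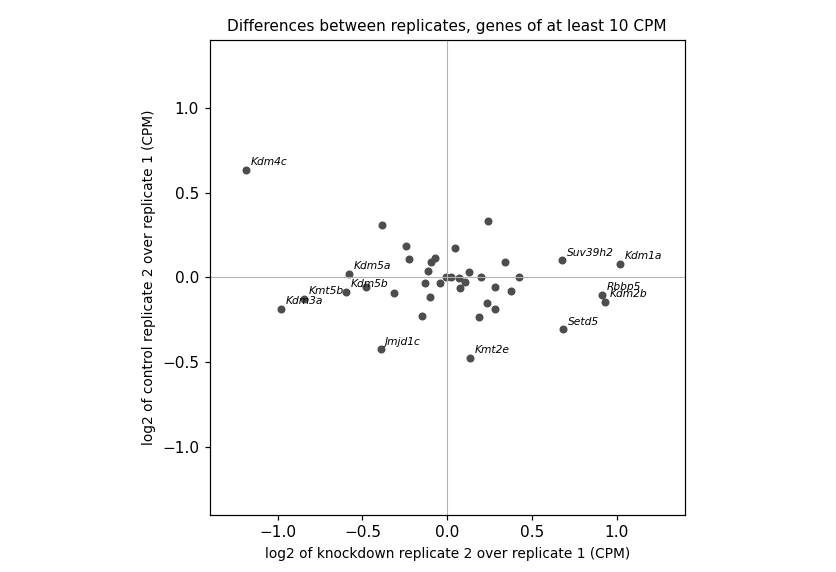
Log2 ratio of replicate 2 to replicate 1 in knockdown (x axis) and in control (y axis), for the 40 genes of at least 10 CPM, 1 point per gene. Points spread more along the knockdown axis, from Kdm4c on the left to Kdm1a on the right, than along the control axis.

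The other genes of the process, a list of 54 partners, remaining methyltransferases and demethylases, and Polycomb subunits, also had no member past the test (adjusted p 0.9999 for each). At an unadjusted p under 0.05 there were 3, all higher in knockdown, against 1.56% of all genes for that direction, and 0 were lower, against 2.29%. Of the 54, 34 lay above 0 and 20 below, against 49.7% of all genes above 0 and 55.4% of genes of at least 10 CPM. The median log2 fold change of the 54 was 0.10, against -0.0025 over all genes tested. Prdm9, the H3K4 methyltransferase of meiotic recombination sites, had 10.2 and 8.71 CPM in knockdown and 5.22 and 4.46 CPM in control (0.97, SE 0.28, unadjusted p 0.0164). Bod1l, which binds the SETD1 complex, had 97.9 and 109 CPM in knockdown and 80.9 and 79.9 CPM in control (0.37, SE 0.13, unadjusted p 0.0297). Rcor1, the CoREST scaffold that carries KDM1A, had 113 and 115 CPM in knockdown and 93.05 and 94.08 CPM in control (0.29, SE 0.11, unadjusted p 0.0476). Mllt3, a reader in DOT1L and elongation complexes, had 594 and 688 CPM in knockdown and 531 and 540.0 CPM in control (unadjusted p 0.0501). In these 4 genes the groups did not overlap, but they were named for the smallest p in this direction. Of all genes, 15.6% were higher without overlap.

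In the other direction the smallest unadjusted p belonged to Smyd4, at 9.18 and 8.37 CPM in knockdown and 14.3 and 11.6 CPM in control (-0.56, SE 0.25, unadjusted p 0.0725). Mtf2, a Polycomb accessory protein, had 103 and 97.4 CPM in knockdown and 121 and 113 CPM in control. Zfp644, a partner of the G9a and GLP pair, had 104 and 88.4 CPM in knockdown and 113 and 105 CPM in control, and Phf19 2.77 and 2.41 against 5.14 and 2.56 CPM. The groups of Smyd4, Mtf2 and Zfp644 did not overlap, and those of Phf19 did. Of all genes, 17.1% were lower without overlap. The count of 3 of 54 (5.56%), against 3.85% of all genes, was 0 without control replicate 2, against 2.0%, and 1 without control replicate 1 (1.85%), against 1.89%. It was 16 without knockdown replicate 1 (29.6%), against 13.1%, and 8 without knockdown replicate 2 (14.8%), against 8.02%, under the same assumption on the lone library. Zfp644 and Phf19 are named by their rank and had unadjusted p-values of 0.238 and 0.266.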

How the data were processed

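PolyA RNA of 4 libraries was sequenced, 2 per group. Values in the deposited table are raw counts for each gene, whole numbers that the authors had not normalized. Among the tools in the submitters' processing notes are HISAT2 2.1.0, Picard 2.18.2, Trim Galore 0.6.5 and CASAVA 1.8, with mm10 as the build; the counting tool, its strand setting and the handling of duplicates were not given in the sources used here. Rows were matched by Ensembl ID without version to GENCODE M21 (GRCm38, the assembly of mm10), 53620 of 53715 rows. The main test was the quasi-likelihood F-test of edgeR 4.0.16, run in R 4.3.3 (filterByExpr, minimum 10 counts, TMM factors, group as the only term, two-sided, Benjamini-Hochberg over 25565 genes). DESeq2 1.42.0 and limma-voom (limma 3.58.1), other scalings, filters and left-out libraries were alternatives. The SE is that of the log2 fold change, its size over the square root of F. Replicate differences used log2(CPM + 0.5). The members, lists and tests were chosen with earlier results of these data known. Values in every library were due for the members with the smallest p overall and by class, the highest and lowest levels, the widest replicate steps and a fixed panel, and are given for all; of the other 54 genes, the 4 smallest p in each direction. Replicate numbers were not taken to pair libraries.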

Additional observations from a re-analysis of the deposited data

How the results depend on the processing

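No member passed the adjusted threshold under any of the 12 alternatives run, the crossed pairing among them, which was chosen after the data were seen. The count at an unadjusted p under 0.05, 0 as reported, was 1 with DESeq2 and 2 with limma-voom, and 0 to 12 with 1 library left out. The median log2 fold change, 0.046 as reported, was 0.054 with RLE factors, 0.089 with upper-quartile factors, 0.060 with DESeq2, 0.017 with limma-voom, 0.030 for genes averaging 10 CPM or more, 0.020 with the replicate block, and -0.015 to 0.062 with 1 library left out. For the other 54 genes the count of 3 was 6 with limma-voom (11.1%, against 3.13% of all genes) and 2 without a filter (3.70%, against 2.67%). That count was 1 with the replicate block (1.85%, against 1.87%) and 0 to 16 with 1 library left out (0 to 29.6%, against 1.89 to 13.1%). A group left with 1 library is assumed to vary like the other. Same-numbered libraries did not deviate together (correlation -0.07 over all genes, -0.21 at 10 CPM or more), and the block gave 479 genes at an unadjusted p under 0.05 over the whole table and the crossed block 747, against 984.

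Of the 50 members, 24 kept their direction under the alternatives that gave them a value; 6 of these had none at a mean of 10 CPM or more, and for the crossed pairing only counts were taken. The others changed sign under at least 1, and the cause was not tested. With upper-quartile factors the log2 fold change was 0.024 for Setdb2, 0.018 for Prdm2, 0.031 for Nsd2 and 0.020 for Kdm4a. With DESeq2 the log2 fold change was 0.0028 for Nsd2. With limma-voom the log2 fold change was -0.0011 for Kmt2c, -0.18 for Ehmt2, -0.053 for Kdm3a and -0.065 for Kdm4c. Without a filter the log2 fold change was -0.00061 for Kmt2c. For genes averaging 10 CPM or more the log2 fold change was -0.020 for Kmt2c and -0.0041 for Kdm4c. With the replicate block the log2 fold change was -0.0012 for Kmt2c, -0.18 for Ehmt2, -0.053 for Kdm3a and -0.079 for Kdm4c. With 1 library left out, values of both signs were reached by Ash2l (-0.20 to 0.053), Ehmt1 (-0.059 to 0.28), Ehmt2 (-2.25 to 1.58), Jmjd1c (-0.26 to 0.18), Kdm1a (-0.048 to 0.97), Kdm1b (-0.057 to 0.36), Kdm2a (-0.38 to 0.0045), Kdm2b (-0.42 to 0.51), Kdm3a (-0.55 to 0.44), Kdm4a (-0.072 to 0.030), Kdm4c (-0.71 to 0.48), Kdm4d (-1.10 to 0.29), Kdm5a (-0.17 to 0.41), Kdm5b (-0.40 to 0.20), Kmt2c (-0.066 to 0.070), Kmt5b (-0.57 to 0.28), Kmt5c (-1.16 to 0.60), Nsd1 (-0.058 to 0.18), Nsd2 (-0.068 to 0.046), Phf2 (-0.36 to 0.51), Phf8 (-0.24 to 0.038), Prdm2 (-0.28 to 0.20), Rbbp5 (-0.20 to 0.71), Setd2 (-0.063 to 0.17), Setd5 (-0.30 to 0.38) and Setdb2 (-0.18 to 0.14).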
